A study of Drosophila melanogaster with 4 samples.

Results

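The kinesin and dynein genes are the 36 rows, of 14664 genes in each table, whose deposited gene name begins with Klp, Khc, Dhc, Dlc, Dlic, Cdlc or kl-, or is ncd, nod, pav, cmet, cana, neb, sub, sw, ctp, robl or unc-104. The prefix Dic was searched as well and matched no row. RNA was sequenced from Drosophila melanogaster testes, dissected within 3 days of eclosion, from Phf7 bam flies, mutant for both genes (labelled Phf7-bam-), and from bam flies (labelled bam-). Each genotype had 2 biological replicates, and all 4 libraries carry the bam mutation. The labels do not give the alleles. Phf7 itself was at 18.8 and 22.9 FPKM in Phf7 bam replicates 1 and 2, against 173 and 152 FPKM in bam replicates 1 and 2. Values are FPKM, fragments scaled to transcript length and library size, and levels of different genes are set side by side on that scale. RNA was oligo-dT selected, and how evenly long transcripts were covered cannot be seen in these values.

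Kinesins and dyneins are motors that use ATP to step along microtubules. Most kinesins walk towards the plus end and build spindles, pull or push chromosomes, or carry cargo, while cytoplasmic dynein is a large complex that walks towards the minus end. Axonemal dyneins are a separate set of heavy chains that bend the flagellum of the sperm. Loss of bam holds male germ cells in spermatogonial divisions, so such a testis contains dividing germ cells and few cells that build a flagellum. The PHD finger protein made from Phf7 is known as a male identity factor of the germline.

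Averaged over the 4 libraries, 26 of the 36 genes reached 1 FPKM, and 10 did not. The 26 held 24 of the 27 genes sorted here as spindle kinesins, transport kinesins or cytoplasmic dynein, and 2 of the 8 axonemal dynein heavy chains. Median FPKM of the 13 spindle kinesins was 19.5 and 23.0 in Phf7 bam replicates 1 and 2, against 17.7 and 16.7 in bam replicates 1 and 2. For the 7 transport kinesins the medians were 6.37 and 7.32 FPKM in Phf7 bam, against 6.89 and 6.48 FPKM in bam. The 7 cytoplasmic dynein genes had medians of 39.3 and 43.8 FPKM in Phf7 bam, against 34.6 and 35.9 FPKM in bam. Those of the 8 axonemal heavy chains were 0.035 and 0.020 FPKM in Phf7 bam, against 0.012 and 0.011 FPKM in bam. The gap between the axonemal class and each other class was thus present in every library of both genotypes. Over the 4 libraries, the median of mean FPKM was 19.2 higher for spindle kinesins than for axonemal heavy chains, 6.75 higher for transport kinesins and 38.4 higher for cytoplasmic dynein. The cytoplasmic class includes intermediate and light chains, and the axonemal class holds heavy chains only, so that last gap sets unlike subunits side by side. Among genes with a mean of at least 1 the gap of the transport kinesins was 1.27 FPKM, because only the higher 2 axonemal genes then remain. The tissue was sequenced in bulk, so fewer cells of a type and less RNA per cell cannot be told apart.

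**Figure D1:**
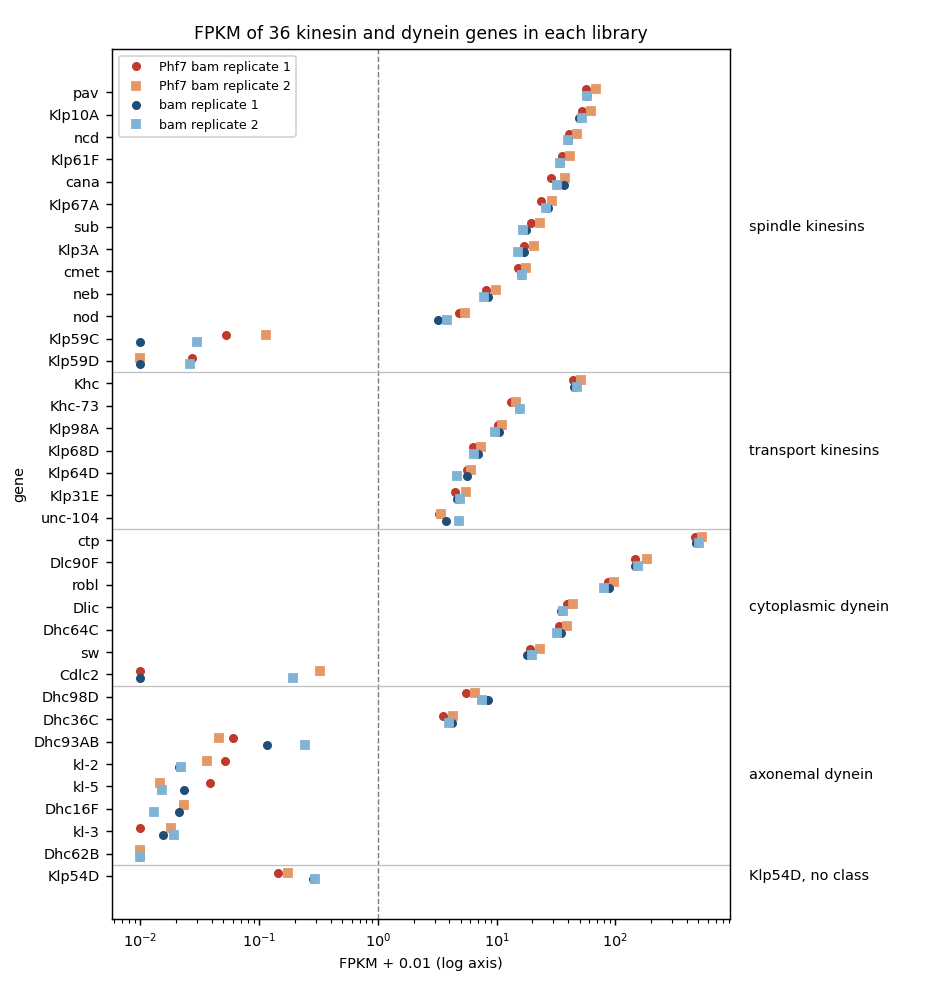
FPKM + 0.01 on a log axis for each of the 36 genes, grouped by class. Points are the 4 libraries (Phf7 bam in red and orange, bam in dark and light blue), and the dashed line marks an FPKM of 1. Genes of the first 3 classes lie to the right of the line except Klp59C, Klp59D and Cdlc2, and axonemal heavy chains lie to its left except Dhc98D and Dhc36C.

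No motor gene changed between the genotypes by the test used here. Values were compared as log2(FPKM + 1) with limma over the 8965 genes that averaged 1 FPKM or more, these 26 included. At a limma adjusted p under 0.05, 0 of the 26 motor genes were called, where 0.234% of all genes tested were called, 0.123% as higher and 0.112% as lower in Phf7 bam. At an unadjusted limma p under 0.05 there was 1 motor gene, nod, where 6.13% of all genes tested had one. Changes lay between -0.35 and 0.45 on the log2(FPKM + 1) scale, with standard errors of 0.105 to 0.175 and limma adjusted p of 0.771 to 0.996. In this fit the 95% intervals of the 26 changes lay between -0.73 and 0.86. With its pseudocount of 1, none reached a change of 1 in either direction. With the smallest pseudocount tried, the interval of nod extended past 1. In some fits that left out 1 library, intervals of nod, unc-104 and Dhc98D also passed a change of 1 in either direction. A change of that size is therefore not excluded for every motor gene under every setting. The median change of the 26 genes was 0.11, beside 0.03 for all genes tested. With 2 libraries per genotype a p that misses the threshold does not show that a gene is equal in both.

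**Figure D2:**
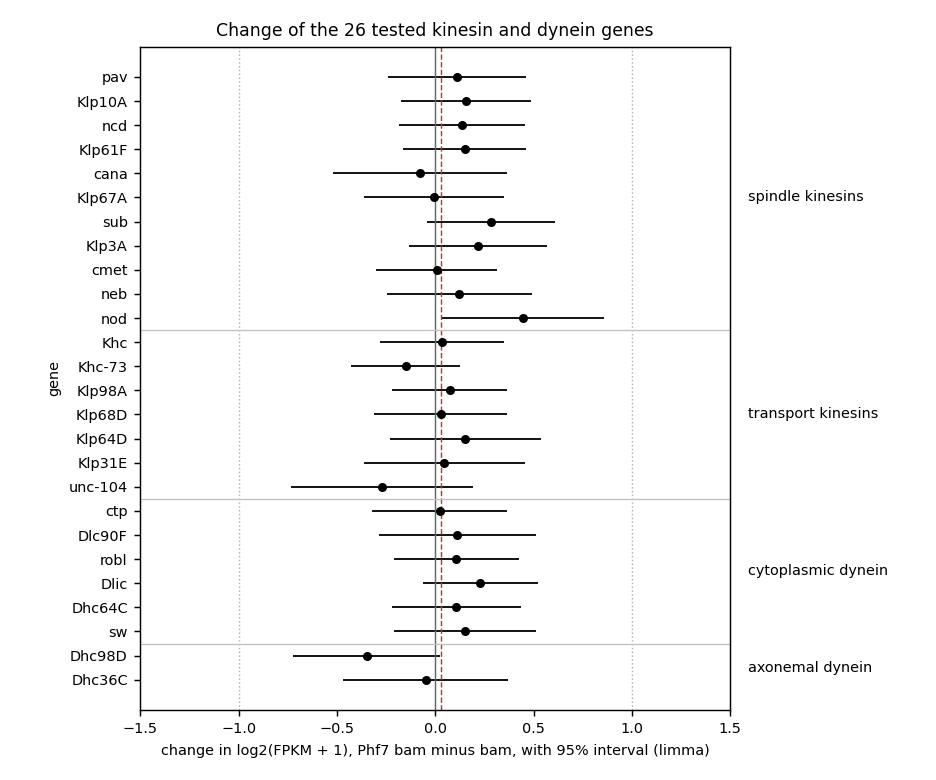
Change in log2(FPKM + 1), Phf7 bam minus bam, for the 26 motor genes tested. Points are limma estimates and bars 95% intervals, the red dashed line is the median change of all genes tested (0.03), and dotted lines mark -1 and 1. Only the interval of nod leaves out 0.

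The spindle kinesins with the most transcript were pav, Klp10A, ncd and Klp61F. pav, which encodes the kinesin-6 motor of the centralspindlin complex that drives cytokinesis, stood at 56.7 and 68.7 FPKM in Phf7 bam replicates 1 and 2 and at 57.6 and 57.7 FPKM in bam replicates 1 and 2. Its genotypes overlapped, since Phf7 bam replicate 1 lay below both bam libraries (change 0.11, SE 0.134, limma adjusted p = 0.965). Klp10A, a kinesin-13 that takes microtubules apart at their ends, was at 52.7 and 61.7 FPKM in Phf7 bam and at 49.6 and 52.5 FPKM in bam. Both Phf7 bam libraries lay above both bam libraries (change 0.16, SE 0.126, limma adjusted p = 0.923). ncd, a minus-end-directed kinesin-14 that focuses spindle poles, was at 40.9 and 47.9 FPKM in Phf7 bam and at 40.2 and 40.2 FPKM in bam (change 0.13, SE 0.122, limma adjusted p = 0.932). Klp61F, the bipolar kinesin-5 that pushes spindle poles apart, was at 35.5 and 41.1 FPKM in Phf7 bam and at 34.4 and 34.2 FPKM in bam (change 0.15, SE 0.118, limma adjusted p = 0.923). In these 2 genes the bam libraries nearly coincided, and the distance to bam came mostly from Phf7 bam replicate 2.

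Kinetochore and midzone motors followed at lower levels. cana and cmet both encode relatives of the kinetochore motor CENP-E, and their loci are neighbours on 2L, 547 bp apart (cana at 11269727 to 11279847 and cmet at 11260823 to 11269179; dm3, counted from 1). cana was at 28.6 and 37.4 FPKM in Phf7 bam and at 37.0 and 32.4 FPKM in bam, and cmet at 15.2 and 17.5 FPKM in Phf7 bam and at 16.0 and 16.4 FPKM in bam. cana thus exceeded cmet in every library, by a ratio of 1.88 and 2.13 in Phf7 bam and of 2.30 and 1.97 in bam. Klp67A, a kinesin-8 that limits spindle length, was at 23.7 and 29.1 FPKM in Phf7 bam and at 26.9 and 25.9 FPKM in bam. Klp3A, a kinesin-4 of chromosomes and the central spindle that male meiotic cytokinesis needs, was at 17.1 and 20.5 FPKM in Phf7 bam and at 16.8 and 15.2 FPKM in bam. The first of these overlapped between the genotypes, and Klp3A did not.

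Among the kinesins best known from female meiosis, sub and nod had both Phf7 bam libraries above both bam libraries. sub, a kinesin-6 of the acentrosomal spindle of oocytes, was at 19.5 and 23.0 FPKM in Phf7 bam and at 17.7 and 16.7 FPKM in bam (change 0.28, SE 0.124, limma adjusted p = 0.870). It was singled out after its values were seen. nod, a chromosome-bound motor that holds achiasmate chromosomes at the oocyte spindle, was at 4.84 and 5.37 FPKM in Phf7 bam and at 3.18 and 3.78 FPKM in bam. Its change was the largest of the 26, at 0.45 (SE 0.156, 95% interval 0.04 to 0.86, limma adjusted p = 0.771). The limma adjusted p of nod lay between 0.319 and 1 over all settings in which it was tested. Its unadjusted limma p was above 0.05 on leaving out each library in turn (0.0656 to 0.197), without the filter (0.0562) and with the replicate block (0.0546).

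The place of nod on X is near 2 genes that limma called higher in Phf7 bam testes. Its locus (X, 11474851 to 11479787) begins 7.18 kb from Reepl1 and 8.38 kb from Kmn1. Reepl1 was at 12.7 and 12.9 FPKM in Phf7 bam and at 0.62 and 0.25 FPKM in bam, and Kmn1 at 19.9 and 21.0 FPKM in Phf7 bam and at 5.67 and 5.46 FPKM in bam. nod also overlaps CG1561 by 2209 bp, on the opposite strand in the later BDGP6 annotation. CG1561 was at 0.76 and 1.37 FPKM in Phf7 bam and at 1.24 and 1.02 FPKM in bam, so it did not separate the genotypes. The kit was directional, but no source used here says whether quantification used strand. The part of either neighbourhood in the values of nod was not tested.

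The other 3 spindle kinesins were neb, at a level above nod, and Klp59C and Klp59D, near 0. neb, a chromatin-associated kinesin needed for mitosis, was at 8.06 and 9.91 FPKM in Phf7 bam and at 8.42 and 7.86 FPKM in bam, and its genotypes overlapped. Its locus shares 2780 bp with fok, which was at 55.5 and 67.1 FPKM in Phf7 bam and at 43.8 and 47.9 FPKM in bam, so the level of neb is uncertain. Klp59C, a kinesin-13, was at 0.043 and 0.10 FPKM in Phf7 bam, and in bam it was listed at 0 in replicate 1 and at 0.020 FPKM in replicate 2. Klp59D, of the same family, stayed at or under 0.017 FPKM in every library. The kinesin-13 transcript of these testes was thus almost all from Klp10A.

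Of the transport kinesins Khc stood far above the rest. Khc, the heavy chain of conventional kinesin, was at 44.2 and 50.8 FPKM in Phf7 bam and at 45.0 and 47.5 FPKM in bam (change 0.03, SE 0.120, limma adjusted p = 0.988). Its light chain partner Klc, which is not among the 36 genes, was nearly level with it, the ratio of Khc to Klc being 1.08 and 1.07 in Phf7 bam and 0.996 and 1.07 in bam. Khc-73, a kinesin-3 with a part in spindle orientation and endosome transport, was at 13.2 and 14.5 FPKM in Phf7 bam and at 15.3 and 15.6 FPKM in bam. Both Phf7 bam libraries lay below both bam libraries (change -0.15, SE 0.105, limma adjusted p = 0.909). Klp98A, a kinesin-3 of endosomes, was at 10.2 and 11.1 FPKM in Phf7 bam and at 10.4 and 9.74 FPKM in bam (change 0.07, SE 0.112, limma adjusted p = 0.979), and the genotypes overlapped.

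Klp68D and Klp64D encode the motor subunits of heterotrimeric kinesin-2, which works in axons and in ciliary transport. Klp68D was at 6.37 and 7.32 FPKM in Phf7 bam and at 6.89 and 6.48 FPKM in bam (change 0.03, SE 0.129, limma adjusted p = 0.989). Klp64D was at 5.57 and 6.02 FPKM in Phf7 bam and at 5.60 and 4.65 FPKM in bam. Their non-motor subunit Kap3 was at 4.21 and 4.36 FPKM in Phf7 bam and at 3.94 and 4.98 FPKM in bam. All 3 transcripts of the complex were thus measured at similar levels, and none separated the genotypes. Klp31E, a kinesin-4, ranged from 4.45 to 5.51 FPKM over the 4 libraries, and its genotypes overlapped.

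unc-104, the kinesin-3 that carries synaptic vesicle precursors in neurons, was at 3.24 and 3.41 FPKM in Phf7 bam and at 3.70 and 4.78 FPKM in bam. Both Phf7 bam libraries lay below both bam libraries (change -0.27, SE 0.175, limma adjusted p = 0.906). Its locus overlaps 4 other genes, so its level is uncertain. Of 7 neuronal markers, 3 had a mean FPKM of at least 1 and 0 were called, and their summed FPKM was 58.1 and 66.5 in Phf7 bam and 57.9 and 63.4 in bam. Syx1A, a syntaxin used outside neurons too, made up most of that sum. The vesicle protein gene nSyb was at 4.47 and 7.12 FPKM in Phf7 bam and at 6.95 and 7.77 FPKM in bam, with overlap, and the neuronal RNA-binding protein gene elav at 4.79 and 5.09 FPKM in Phf7 bam and at 3.94 and 5.07 FPKM in bam. The part of neurons in the values of unc-104 was not tested. Syt1, brp, VGlut and ChAT, which mark synapses, stayed at or under 0.33 FPKM in every library.

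Cytoplasmic dynein was covered from its motor chain to its light chains. Dhc64C, the heavy chain that holds the motor domain, was at 33.4 and 39.1 FPKM in Phf7 bam and at 34.6 and 32.4 FPKM in bam. The intermediate chain sw was at 19.1 and 23.3 FPKM in Phf7 bam and at 18.0 and 19.8 FPKM in bam. Both overlapped between the genotypes. The light intermediate chain Dlic was at 39.3 and 43.8 FPKM in Phf7 bam and at 34.6 and 35.9 FPKM in bam, with no overlap (change 0.23, SE 0.111, limma adjusted p = 0.906). Dlic shares 3001 bp with CG32668, which stayed at or under 0.55 FPKM. The locus of sw lies 42.3 kb from Phf7 on X, the gene mutated in Phf7 bam flies, and its values did not separate the genotypes.

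Light chains had the highest levels of all motor genes. ctp, an LC8 light chain that also binds many partners outside dynein, was at 466 and 536 FPKM in Phf7 bam and at 480 and 504 FPKM in bam (change 0.02, SE 0.131, limma adjusted p = 0.989). Its percentile among the genes of a library was 98.7 or above. Cdlc2, which encodes a very similar LC8 protein, was listed at 0 in replicate 1 of both genotypes, at 0.31 FPKM in Phf7 bam replicate 2 and at 0.18 FPKM in bam replicate 2. ctp thus supplied at least 99.9% of the summed LC8 FPKM in every library, with the reservation that reads common to such copies cannot be assigned. Dlc90F, the Tctex light chain, was at 145 and 183 FPKM in Phf7 bam and at 147 and 155 FPKM in bam (change 0.11, SE 0.152, limma adjusted p = 0.975). robl, the roadblock light chain, was at 86.0 and 96.4 FPKM in Phf7 bam and at 88.3 and 80.8 FPKM in bam (change 0.11, SE 0.121, limma adjusted p = 0.964). In each of these 3 genes the genotypes overlapped. The roadblock paralogues robl22E, robl37BC and robl62A stayed at or under 0.79 FPKM.

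The axonemal heavy chains split into 2 measured genes and 6 near 0. Both measured loci are given in dm3, Dhc98D on 3R at 24312675 to 24345120 and Dhc36C on 2L at 17501467 to 17525517. In Phf7 bam Dhc98D was at 5.52 and 6.55 FPKM, and in bam at 8.44 and 7.45 FPKM. Both Phf7 bam libraries lay below both bam libraries, with the lowest change of the 26 genes at -0.35 (SE 0.142, 95% interval -0.72 to 0.03, limma adjusted p = 0.838). Dhc36C was at 3.55 and 4.30 FPKM in Phf7 bam and at 4.24 and 3.93 FPKM in bam, and the genotypes overlapped (change -0.05, SE 0.160, limma adjusted p = 0.988). Set against the cytoplasmic heavy chain within each library, Dhc64C exceeded Dhc98D by a ratio of 6.06 and 5.96 in Phf7 bam and of 4.11 and 4.35 in bam. For Dhc36C the ratio was 9.41 and 9.08 in Phf7 bam and 8.17 and 8.24 in bam. Dhc36C shares 3661 bp with CG15143, which stayed at or under 0.63 FPKM, and Dhc98D overlaps no other gene of the tables.

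The other 6 axonemal heavy chains stayed at or under 0.23 FPKM in every library. Dhc93AB was at 0.050 and 0.036 FPKM in Phf7 bam and at 0.11 and 0.23 FPKM in bam. The Y-linked fertility genes kl-2, kl-3 and kl-5, which encode heavy chains of the sperm tail and are placed on YHet in dm3, stayed at or under 0.042 FPKM. Dhc16F did not exceed 0.013 FPKM, and Dhc62B was listed at 0 in all 4 libraries. In the BDGP6 annotation the longest transcripts of the matched axonemal genes span 12090 to 15850 bases. Klp54D, a kinesin placed in no class here, was at 0.13 and 0.16 FPKM in Phf7 bam and at 0.27 and 0.29 FPKM in bam, below the level tested.

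A further 5 dynein rows that the naming rule misses, found by current symbol after values were seen, were also low. These are the ciliary transport heavy chain btv and the axonemal subunits Dnah3, Dnai2, Dnali1 and ODA-Dnal1, and none exceeded 1.32 FPKM. ODA-Dnal1 had the highest values, at 0.44 and 0.21 FPKM in Phf7 bam and at 1.32 and 0.75 FPKM in bam. Of the kinesins missed in the same way, Kif19A was at 1.999 and 2.85 FPKM in Phf7 bam and at 2.94 and 2.23 FPKM in bam, and Kif3C stayed at or under 0.35 FPKM.

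Phf7 bam replicate 2 stood apart from the other 3 libraries in these genes. It had the highest value of the 4 libraries in 23 of the 26 motor genes, where this held for 57.4% of all genes tested. The 3 exceptions were Khc-73, unc-104 and Dhc98D. Deviations from a gene's own mean over the 4 libraries had a median of 0.15 in Phf7 bam replicate 2 for the motor genes, beside 0.10 for all genes tested. In Phf7 bam replicate 1 these medians were -0.07 and -0.08. The 2 libraries of this genotype thus lay on either side of bam. With Phf7 bam replicate 2 left out, the median change of the 26 genes was -0.02 and 11 had a positive change, and with all 4 libraries it was 0.11 and 20 had one. Quantile normalization gave a median of 0.04 with 15 positive, and equal medians 0.08 with 18. Relative depth, from the spacing of the lowest FPKM values, was 1.16 and 1.42 in Phf7 bam replicates 1 and 2 and 1.23 in bam replicate 2, taking bam replicate 1 as 1. The part of depth in these values was not tested.

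**Figure D3:**
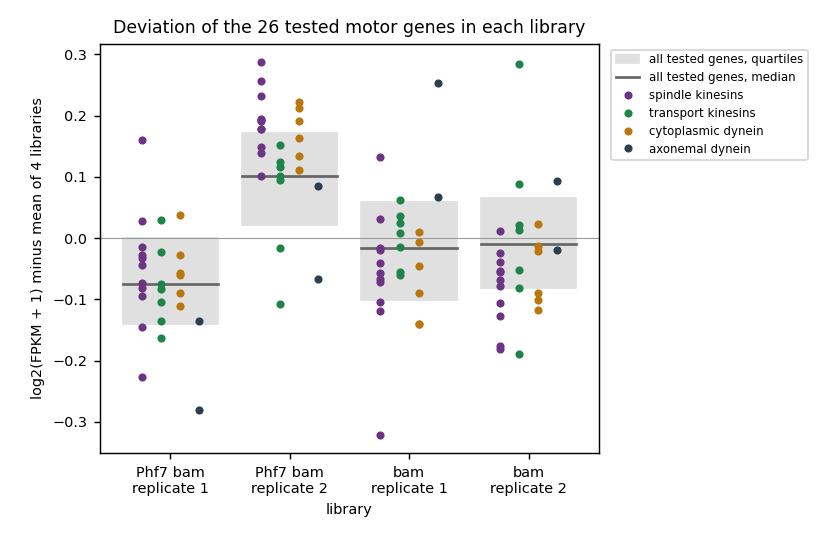
Deviation of each of the 26 motor genes from its own mean over the 4 libraries, in log2(FPKM + 1), by library and class. Grey boxes and lines give the quartiles and median of all genes tested. In Phf7 bam replicate 2 all but 3 motor genes lie above 0.

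No class gave a call, and in the main fit most changes were positive except in the 2 axonemal genes. Over all genes tested 57.4% had a positive change, beside 76.9% of the 26 motor genes. Of 11 spindle kinesins tested 9 had a positive change (median 0.13), and 8 with quantile normalization or equal medians. Of 7 transport kinesins 5 had one (median 0.03), and 2 with quantile normalization (median -0.05). Cytoplasmic dynein had 6 of 6 (median 0.11), and 5 with either scaling. The axonemal genes had 0 of 2 (median -0.20) with every scaling, and 1 without Phf7 bam replicate 1. Without Phf7 bam replicate 2 the spindle kinesins had 6 positive, the transport kinesins 2 and cytoplasmic dynein 3. Both Phf7 bam libraries lay above both bam libraries in 7 of the 26 genes (26.9%), where 20.5% of all genes tested did. These were 6 spindle kinesins and Dlic. Both lay below in 3 genes (11.5%), Khc-73, unc-104 and Dhc98D, where 14% of all genes tested did. The difference between classes in change was not tested.

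Genes that act with the motors were likewise not called, in 0 of 30 tested, where 0.234% of all genes tested were called. A further 7 had a mean FPKM under 1. Dynactin, the complex that tethers dynein to cargo, had 10 of 10 subunits tested, at 14.2 to 70.5 FPKM, with a median change of 0.08. Its largest subunit DCTN1-p150 (Gl in the tables) was at 22.1 and 26.1 FPKM in Phf7 bam and at 24.1 and 22.9 FPKM in bam. All 10 dynactin subunits were highest in Phf7 bam replicate 2, as were 24 of the 30 tested partner genes and 57.4% of all genes tested. The 9 dynein cofactors had a median change of 0.06 and the 8 tested kinesin cofactors one of -0.03. Spindly, an adaptor that brings dynein to kinetochores, was at 24.1 and 26.9 FPKM in Phf7 bam and at 19.1 and 20.9 FPKM in bam (change 0.34, SE 0.116, limma adjusted p = 0.768). The ratio of pav to its centralspindlin partner tum was 1.14 and 1.17 in Phf7 bam and 1.04 and 1.11 in bam.

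Factors for building flagella and cilia were measured in part. Of 6 listed, 3 were tested, and dtr, tilB and Zmynd10 had a mean FPKM under 1, at 0.070 to 1.45 FPKM in single libraries. Heatr2, which helps to assemble axonemal dynein, was at 5.31 and 5.76 FPKM in Phf7 bam and at 6.23 and 5.80 FPKM in bam. Oseg1, a subunit of intraflagellar transport, was at 6.38 and 7.51 FPKM in Phf7 bam and at 6.76 and 7.54 FPKM in bam, with overlap. Oseg2, of the same machinery, was at 5.88 and 6.73 FPKM in Phf7 bam and at 2.73 and 2.74 FPKM in bam (change 0.96, SE 0.147, limma adjusted p = 0.222). Its change on the log2(FPKM + 1) scale was the largest of the 30 partner genes tested, and it did not pass the adjusted threshold.

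**Figure D4:**
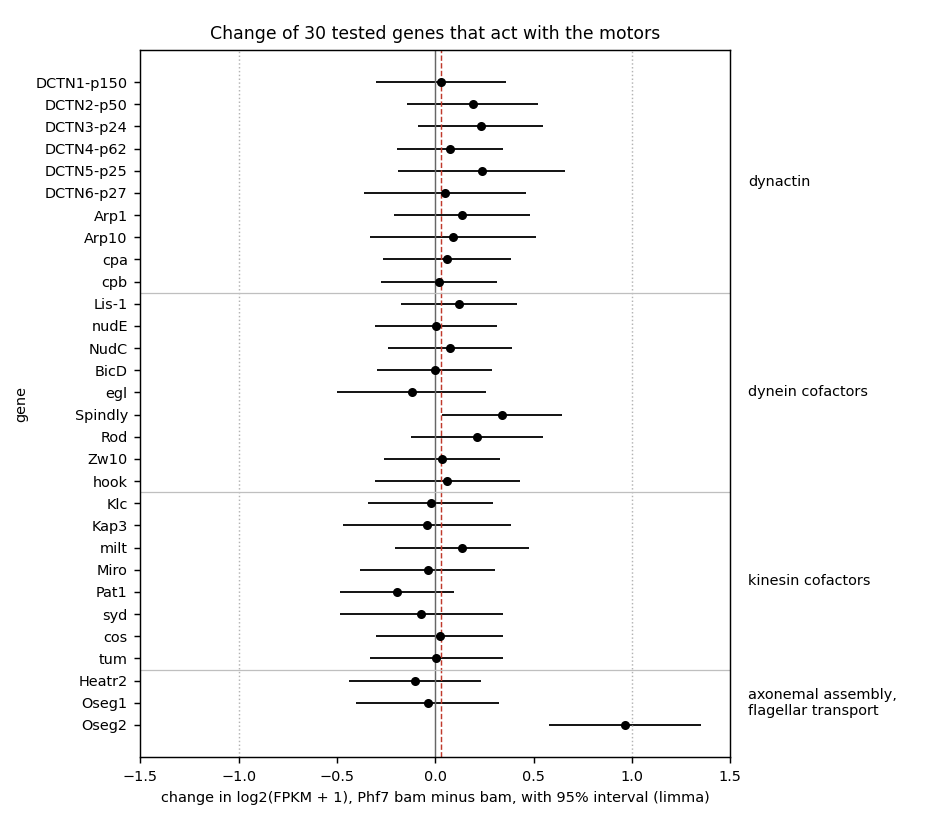
Change in log2(FPKM + 1), Phf7 bam minus bam, with 95% limma intervals for the 30 tested dynactin subunits, cofactors and axonemal or flagellar factors. The red dashed line is the median of all genes tested, and only the intervals of Spindly and Oseg2 leave out 0.

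The libraries carried early germline markers and part of the later ones. All 7 early germline markers were at 26.5 FPKM or above in every library, and 6 of 7 somatic gonad markers had a mean FPKM of at least 1. Of the early germline markers 5 of 7 had a positive change. Among them nos was at 171 and 205 FPKM in Phf7 bam and at 136 and 129 FPKM in bam. Among 8 markers of spermatocytes and later stages, dj, a sperm tail protein, and the spermatocyte regulators can and sa stayed at or under 0.26 FPKM, while aly and mia were at 7.15 to 8.50 FPKM. The meiotic phosphatase gene twe was the highest of the 8, at 17.3 and 21.0 FPKM in Phf7 bam and at 17.4 and 17.4 FPKM in bam. Mst87F, a gene of the sperm tail, was at 1.44 and 2.94 FPKM in Phf7 bam and at 3.17 and 2.59 FPKM in bam, and fzo, for spermatid mitochondria, at 0.66 and 0.99 FPKM in Phf7 bam and at 1.0125 and 1.0112 FPKM in bam. Summed FPKM of 5 accessory gland genes was 1009 and 16.8 in Phf7 bam and 5.98 and 521 in bam, so it set single libraries apart and not genotypes. Sums of 5 haemocyte markers were 19.5 and 21.6 in Phf7 bam and 13.7 and 10.8 in bam, and those of 6 fat body markers 28.0 and 36.6 in Phf7 bam and 11.6 and 19.1 in bam. Without Lsp2, at 18.0 and 19.7 FPKM in Phf7 bam and at 2.38 and 7.12 FPKM in bam, the fat body sums were 9.96 and 16.8 in Phf7 bam and 9.197 and 11.98 in bam, and overlapped. Muscle markers summed to 417 and 461 in Phf7 bam and to 341 and 466 in bam. No marker was called by limma. The markers nos, Lsp2, Hml and Ppn had an unadjusted limma p under 0.05, as did 6.13% of all genes tested. The part of these other cells in the motor values was not tested.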

How the data were processed

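For each library the authors deposited FPKM values by gene, per the file headers. TopHat2, Cufflinks, Cuffdiff and build dm3 are named in the submitters' processing notes, without versions or settings. Per the labels' protocols, RNA was oligo-dT selected and the library kit was directional. Absolute depth is unknown. FPKM summed to 650127 to 662056 per library. The 8965 genes averaging 1 FPKM or more were fitted as log2(FPKM + 1) on genotype with limma 3.58.1 in R 4.3.3, with a trend and empirical Bayes moderation, two-sided, with Benjamini-Hochberg adjustment over all of them (threshold 0.05; 2 residual degrees of freedom). The fit was tested on simulated data with 200 changed genes, each given a change larger than that of any motor gene. That test does not show whether changes as small as those of the motor genes could be called. Replicates are those the labels call biological. Statistics are printed for genes with an unadjusted p under 0.05 and the 4 highest tested genes of each class, for sub and unc-104, chosen after their values were seen, and for partner genes with an unadjusted p under 0.05. The genes, classes and lists were chosen with earlier results of these data known. Status was OK for all 36 genes. Alternatives covered pseudocounts, filters, scalings, moderation, blocks and left-out libraries. Tables were joined in Python 3.11.15 with numpy 2.4.6 and pandas 2.3.3, and drawn with matplotlib 3.10.9.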

Additional observations from a re-analysis of the deposited data

How the results depend on the processing

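With 2 libraries per genotype and 2 residual degrees of freedom, small changes could not be called. No motor gene was called by limma under any of 14 alternatives. All genes called numbered 21, and 37 with a mean FPKM of at least 5, 307 with robust moderation, 0 without a filter, and 0 to 101 with 1 library left out. In the main fit 6.13% of all genes tested had an unadjusted limma p under 0.05, and their share under the alternatives is not given here. Motor genes with one numbered 1 (nod), and 0 with a mean FPKM of at least 5. Without a filter there was 1, Klp54D, which was lower in Phf7 bam (change -0.15), in place of nod. Motor genes with one numbered 2 with robust moderation, 5 with equal medians and 5 with quantile normalization. With 1 library left out they numbered 0 to 7. The replicate number as a block gave 18 calls over all genes, 0 motor genes called and 0 with an unadjusted p under 0.05. Differences of replicate 1 minus replicate 2 correlated at -0.367 over genes between the genotypes. With 1 such difference per genotype, this cannot tell whether the numbers pair the samples. The crossed pairing, added after seeing the data, gave 133 calls over all genes, 0 of them motor genes, and 1 motor gene with an unadjusted p under 0.05. A fit that leaves out 1 library takes the spread of the lone remaining one from the other genotype.

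Of 360 values of the 26 tested motor genes under alternatives 335 kept their sign. The alternative filters, moderation and replicate blocks returned the change of the main fit, so their values could not turn. That count is therefore no measure of how stable the signs were. Of the values that turned, 18 came with 1 library left out (4 values per gene). A further 5 of 26 turned with quantile normalization and 2 of 26 with equal medians. With 1 library left out the sign turned in 12 genes, whose changes ranged from -0.025 to 0.25 for pav, from -0.065 to 0.13 for Khc, from -0.061 to 0.11 for Klp68D, from -0.078 to 0.12 for ctp, from -0.055 to 0.28 for Dlc90F, from -0.16 to 0.061 for Dhc36C, from -0.27 to 0.11 for cana, from -0.091 to 0.11 for cmet, from -0.15 to 0.14 for Klp67A, from -0.082 to 0.17 for Klp31E, from -0.012 to 0.26 for neb and from -0.0028 to 0.22 for Dhc64C. Quantile normalization turned Khc to -0.0033, Klp68D to -0.054, ctp to -0.16, Klp31E to -0.060 and cmet to -0.021, and equal medians turned ctp to -0.0035 and cmet to -0.019. The cause was not tested. The gap in median FPKM to the axonemal class kept its sign throughout. With a mean FPKM of at least 1 it was 57.6 for cytoplasmic dynein and 1.27 for transport kinesins. With a mean of at least 5, which leaves 1 axonemal gene, it was 23.1 for spindle kinesins, 3.38 for transport kinesins and 56.2 for cytoplasmic dynein. A pseudocount does not enter this gap.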

Other observations

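Some low-level partners, named after their values were seen and below the level tested, did not overlap between the genotypes. Among all genes tested, both Phf7 bam libraries lay above both bam libraries in 20.5% and below in 14%. The share among genes below that level was not determined, so the lack of overlap is no result about these partners. robl62A, a paralogue of the roadblock light chain, was at 0.79 and 0.76 FPKM in Phf7 bam and at 0.17 and 0.068 FPKM in bam. Aplip1, the Drosophila relative of the JIP1 scaffold that links kinesin to cargo, was at 0.72 and 0.80 FPKM in Phf7 bam and at 0.35 and 0.35 FPKM in bam. Zmynd10, an assembly factor of axonemal dynein, was at 0.91 and 0.94 FPKM in Phf7 bam and at 0.56 and 0.63 FPKM in bam, while tilB, another such factor, was at 0.57 and 0.81 FPKM in Phf7 bam and at 1.02 and 1.45 FPKM in bam. The axonemal assembly factors thus lay on both sides. Rows whose current symbols are Dic1 to Dic4 carry CG numbers in the tables and encode mitochondrial dicarboxylate carriers, not dynein chains. Of these only Dic1 was measured at a level of at least 1, at 10.96 and 10.04 FPKM in Phf7 bam and at 10.9 and 12.4 FPKM in bam.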
